A study of Mus musculus with 21 samples.

Results

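The genes described here encode the subunits of the receptors for glutamate, GABA and glycine, the main fast transmitters of the retina. They were chosen by symbol alone from the table of counted reads, by a rule that uses no measured value, although earlier results of these data were known when this family was picked. The choice gave 49 genes of the 17164 in the table, made up of 4 AMPA, 7 NMDA, 5 kainate, 2 delta, 8 metabotropic glutamate, 16 GABA-A, 2 GABA-B and 5 glycine receptor genes. All 49 passed the filter on low counts and were tested.

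RNA came from cells sorted under the label of retinal ganglion cells, which send their axons through the optic nerve to the brain. The cells came from C57BL/6 mice aged 6 to 7 weeks, and the optic nerve of every group, the controls included, had been crushed 3 days earlier. The groups were 5 libraries labelled as ATF3 knockout, 2 as ATF4 knockout, 4 as CEBPG knockout, 5 as CHOP knockout and 4 as wild-type control, and the knockouts were made with guide RNAs, which as a rule alter a gene only in the cells that take them up. The comparison asks which transcripts differ after nerve injury when 1 of these stress-response transcription factors is targeted.

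Ionotropic receptors are channels built from several subunits, so the mix of subunit transcripts bears on the kind of channel a cell can assemble. AMPA and NMDA receptors carry the bipolar cell signal to ganglion and amacrine cells, kainate receptors serve OFF bipolar cells, and mGluR6 serves ON bipolar cells. GABA-A, GABA-B and glycine receptors receive the inhibitory signals of amacrine cells, and rho subunits of the GABA-A family are typical of bipolar cell terminals.

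Counted reads per library ranged from 25267560 to 32776378 in ATF3, 11929692 to 12404601 in ATF4, 9000250 to 29810987 in CEBPG and 14272784 to 31543917 in CHOP knockouts, and from 6401446 to 11752828 in the controls. In the submitters' sample sheet the ATF3, CEBPG and CHOP knockouts were batch 3 and female. The ATF4 knockouts were batch 1, with 1 female and 1 male, and the controls were batch 2 and male. Knockout, batch and sex therefore cannot be told apart against control. Of the receptor genes 5 lie on the X chromosome, Gabra3, Gabrq, Glra2, Glra4 and Gria3, and the part of sex in their values was not tested. Transcripts of the targeted genes fell in the ATF3 knockouts (Atf3, log2 fold change -1.56), the ATF4 knockouts (Atf4, -0.97) and the CHOP knockouts (Ddit3, -0.43), while Cebpg in the CEBPG knockouts had 49.2 to 92.4 CPM, against 74.6 to 93.6 CPM in the controls (adjusted p = 0.491). CPM are counts of a gene scaled to the total of the library. Of the 14 listed ganglion cell transcripts, those of the transcription factors Pou4f2, Pou4f3 and Isl2 were near 0. Those of Pou4f1 and Ebf3 were at 0 in no library, with 1.31 to 24.2 and 2.68 to 43.3 CPM. Pou4f1 was highest in the ATF4 knockouts, at 9.54 to 24.2 CPM. Pou4f2 was at 0 in 10 of the 20 libraries and at most 3.73 CPM in the others, Isl2 was at most 3.90 CPM, and both were at 0 in every CEBPG knockout library. Rbpms had 6.51 to 45.5 CPM, Slc17a6 4.72 to 58 CPM, Sncg 7.43 to 74.9 CPM and Thy1 3.78 to 38.9 CPM. Chrnb3 had 32 to 211 CPM, and none of these was at 0 in any library. Among the less selective neuronal transcripts of the list, Nefl had 219 to 410 CPM and Tubb3 21.4 to 93.2 CPM. The ganglion cell list took 0.0781% to 0.0838% of counted reads in the ATF3, 0.0663% to 0.067% in the ATF4, 0.0523% to 0.0711% in the CEBPG and 0.0659% to 0.0834% in the CHOP knockouts, and 0.0485% to 0.0669% in the controls, with 5, 6, 3 and 4 genes higher and 5, 0, 5 and 3 lower in the 4 knockouts. The amacrine transcripts Gad1 and Slc6a9 had 297 to 1460 and 406 to 2370 CPM. In such bulk samples, fewer cells of a type and less RNA per cell cannot be told apart.

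Most receptor genes rose in the ATF3 and CHOP knockouts, and most did not pass the test in the ATF4 and CEBPG knockouts. In the ATF3 knockouts 33 of the 49 rose and 1 fell, against 18.6% and 14.8% (33.4% in all) of the 16797 tested genes. In the ATF4 knockouts 17 rose and 1 fell, against 16.6% and 14.6% of all genes (31.3% in all). In the CEBPG knockouts 15 rose and 8 fell, against 18.3% and 15% of all genes (33.4% in all). In the CHOP knockouts 30 rose and 3 fell, against 18.1% and 15.4% of all genes (33.5% in all). The median log2 fold change of the 49 genes was 1.24 in ATF3, 0.50 in ATF4, 0.55 in CEBPG and 1.23 in CHOP knockouts, and over all tested genes it was 0.06, 0, 0.06 and 0.01. For the ATF4 and CEBPG knockouts the share of receptor genes that rose therefore differed less from that of all genes than for the ATF3 and CHOP knockouts, and a difference between these shares was not tested. All 4 comparisons use the same 4 control libraries, so their values are given side by side and not as independent evidence of each other. A rise was called at an adjusted p below 0.05 in edgeR's quasi-likelihood test. Most ATF4 calls rest on single libraries: of the 18, only those of Gabrd, Gria4, Grik5 and Grin1 remained whichever library was left out, and the 17 rises became 9 without ATF4 replicate 1, ATF4 replicate 3 or control replicate 8. Calls that remained numbered 30 of 34 for ATF3, 21 of 23 for CEBPG and 30 of 33 for CHOP.

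**Figure D1:**
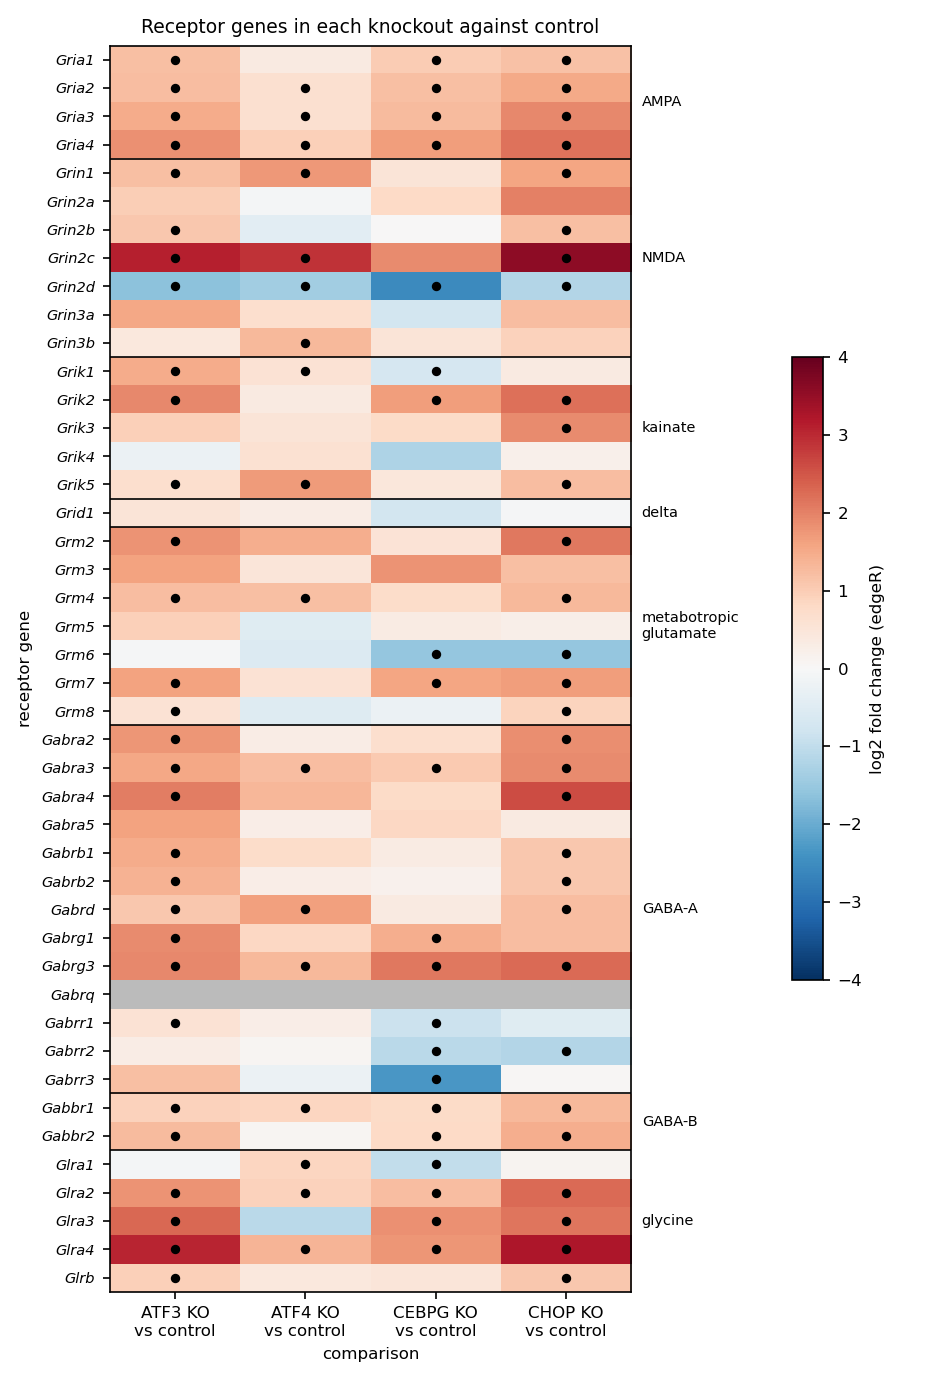
Log2 fold change of 44 of the 49 receptor genes (down the page, by class) in each knockout against control (across), as colour, red for higher and blue for lower in the knockout. A black dot marks an adjusted p below 0.05, and Gabrq, with reads in 5 of 20 libraries, is left grey. The 4 AMPA genes are red in every column, Grin2d is blue in every column, and Grm6 is blue in the CEBPG and CHOP columns.

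The transcript mix of the cells moved along with these changes. Amacrine markers (13 genes) took 0.595% to 0.619% of counted reads in ATF3, 0.438% to 0.516% in ATF4, 0.347% to 0.436% in CEBPG and 0.704% to 0.822% in CHOP knockouts, and 0.151% to 0.263% in the controls. Of these 13 markers 11, 9, 10 and 11 rose in knockouts of ATF3, ATF4, CEBPG and CHOP, 1 fell in the CEBPG knockouts, and Slc18a3 was at 0 in all CEBPG libraries. Bipolar markers (12 genes without Grik1 and Grm6, which are receptor genes) took 0.125% to 0.145%, 0.125% to 0.137%, 0.0371% to 0.0722% and 0.0477% to 0.0703% of reads in the 4 knockouts in the same order, and 0.116% to 0.167% in the controls. With Grik1 and Grm6 included, 13 of 14 bipolar markers fell in the CEBPG and 11 of 14 in the CHOP knockouts. All 10 rod markers fell in each knockout, with a summed share of 0.276% to 0.764% in knockout libraries and 3.16% to 4.82% in the controls. Lymphocyte markers (7 measured genes of T and NK cells) took 0.0191% to 0.0234%, 0.000927% to 0.00547%, 0.0984% to 0.157% and 0.0212% to 0.0312% in the 4 knockouts in the same order, and 0.000263% to 0.000926% in the controls. Muller glia markers (9 genes) took 1.04% to 1.22%, 0.981% to 1.22%, 0.813% to 1.01% and 0.559% to 0.697% in the knockouts in that order. The controls had 0.507% to 0.817%. All ATF3 and ATF4 libraries lay above all controls, as did the CEBPG libraries except replicate 8, at 0.813%. Of these 9 genes 2, 5, 2 and 1 rose and 4, 0, 5 and 4 fell in the 4 knockouts. The part of these shifts in the receptor results was not tested.

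**Figure D2:**
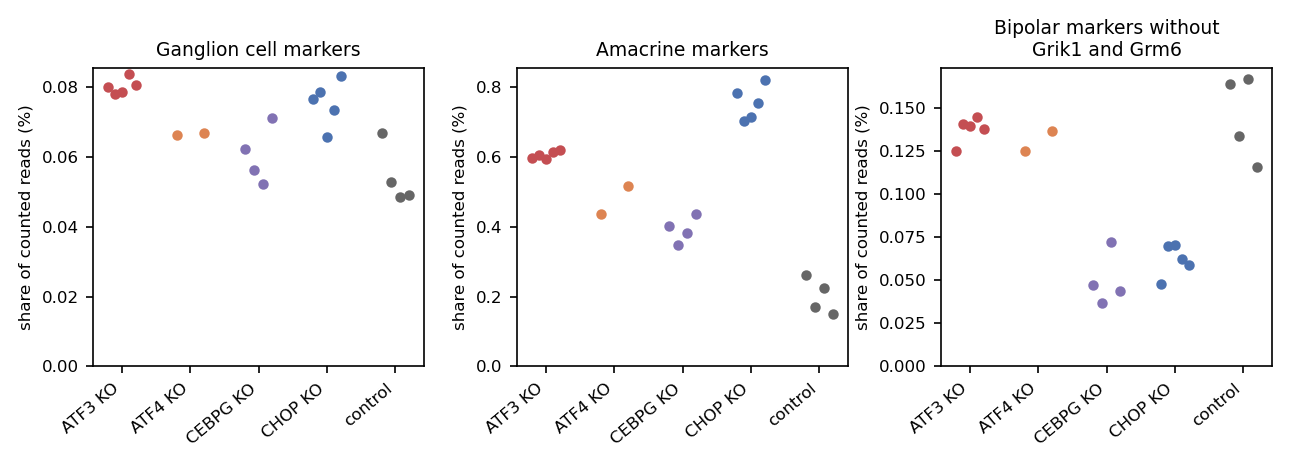
Share of counted reads (%, vertical axis, separate scales) taken by ganglion cell, amacrine and bipolar markers in each library (points) of the 5 groups. Amacrine shares of all knockout libraries, 0.347% and above, lie over those of the controls, at most 0.263%. Bipolar shares of the CEBPG and CHOP knockouts, at most 0.0722%, lie under those of the other groups, at least 0.116%.

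The 4 AMPA receptor genes, which encode the channels of fast excitatory transmission, rose together. All 4 were higher in the ATF3, CEBPG and CHOP knockouts and 3 of the 4 in the ATF4 knockouts, with class medians of 1.36, 1.23, 1.72 and 0.64. Gria4, which encodes GluA4, a subunit of rapidly gating channels, was at 196, 250, 197, 213 and 221 CPM in the ATF3 knockouts and 113 and 119 CPM in the ATF4 knockouts. For Gria4, the CEBPG knockouts had 189, 218, 193 and 165 CPM, the CHOP knockouts 306, 251, 215, 297 and 305 CPM and the controls 93, 64.5, 54 and 30.9 CPM. Every knockout library lay above every control library, and the ATF4 libraries were the lowest of the knockouts. The gene lies at 4417896 to 4796234 of chromosome 9 (mm10, minus strand). Gria4 had a log2 fold change of 1.83 (SE 0.20, adjusted p = 1.63e-07) with ATF3 knocked out and 0.94 (SE 0.24, adjusted p = 0.00422) with ATF4 knocked out. Gria4 was at 1.66 (SE 0.21, adjusted p = 9.13e-07) with CEBPG knocked out and 2.18 (SE 0.20, adjusted p = 1.31e-08) with CHOP knocked out on that scale.

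Sequence upstream of a start of Gria4 is shown because it is the AMPA gene with the largest rises, beside that of Grin2d, the gene that fell in each knockout, and that of Grm7, the one receptor gene in the promoter table whose window holds a C/EBP-ATF response element. ATF4 and its C/EBP partners bind such elements, ATF3 binds CRE or AP-1 elements, and the sequences were read from the RefSeq promoter table (GRCm38.p6). Each is the 250 bases before an annotated start, 5′ to 3′ on the gene's strand, in lower case with the element in capitals: chr9:4796235-4796484 (minus strand) for Gria4, chr7:45866682-45866931 (minus) for Grin2d and chr6:110645262-110645511 (plus) for Grm7. The Grin2d window precedes the 1 start that the table has for this gene, a start inside the annotated gene and not at its outer end.
Gria4: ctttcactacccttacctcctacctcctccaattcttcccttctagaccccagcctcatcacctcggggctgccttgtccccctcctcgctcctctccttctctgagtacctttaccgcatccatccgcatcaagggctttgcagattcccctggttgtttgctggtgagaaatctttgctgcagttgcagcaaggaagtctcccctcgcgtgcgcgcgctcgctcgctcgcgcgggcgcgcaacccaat
Grin2d: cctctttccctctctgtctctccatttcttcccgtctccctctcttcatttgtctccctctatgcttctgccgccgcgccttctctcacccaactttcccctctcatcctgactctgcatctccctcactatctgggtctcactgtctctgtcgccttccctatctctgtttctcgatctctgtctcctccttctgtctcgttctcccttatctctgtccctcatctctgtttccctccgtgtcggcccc
Grm7: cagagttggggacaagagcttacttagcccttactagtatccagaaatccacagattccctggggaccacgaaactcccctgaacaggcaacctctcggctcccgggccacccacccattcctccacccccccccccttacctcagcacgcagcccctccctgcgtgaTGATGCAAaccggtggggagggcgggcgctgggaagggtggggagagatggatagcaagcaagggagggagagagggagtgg
Of the 49 genes 33 had an entry in that table, with 40 start sites. The letters TGATGNAA (C/EBP-ATF response element, either strand) were in 2 of the 40 windows (5.0%), both of Grm7, where the windows of overlapping starts share 1 element, against 3.45% of all 32817 windows. TGANTCA (AP-1) was in 2 windows (5.0%, Grin3b and Grm8), against 6.75% of all, and TGACGTCA (CRE) was in none, against 1.55% of all. A match describes letters only and does not show binding, and its absence is limited to these windows.

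The other AMPA genes had smaller rises than Gria4 in each knockout. Gria2, whose edited GluA2 subunit keeps calcium out of the channel, was at 438, 498, 458, 464 and 464 CPM in the ATF3 knockouts and 333 and 279 CPM in the ATF4 knockouts. For Gria2, the CEBPG knockouts had 318, 657, 423 and 415 CPM, the CHOP knockouts 566, 579, 558, 559 and 566 CPM and the controls 200, 177, 248 and 161 CPM. Its libraries overlapped the controls in no knockout, and replicate 6 of the CEBPG knockouts was the highest of all. Gria2 had a log2 fold change of 1.24 (SE 0.15, adjusted p = 8.15e-07) with ATF3 knocked out and 0.64 (SE 0.19, adjusted p = 0.0109) with ATF4 knocked out. Gria2 was at 1.2 (SE 0.16, adjusted p = 1.8e-06) with CEBPG knocked out and 1.52 (SE 0.15, adjusted p = 4.01e-08) with CHOP knocked out on that scale. Gria3 (GluA3) was at 78.9, 81.8, 105, 119 and 107 CPM in the ATF3 knockouts and 58.7 and 51.8 CPM in the ATF4 knockouts. For Gria3, the CEBPG knockouts had 68.2, 101, 85.4 and 81.7 CPM, the CHOP knockouts 128, 156, 109, 121 and 151 CPM and the controls 54, 22.8, 31.3 and 32.4 CPM. Only the ATF4 knockouts overlapped the controls, through 1 control library at 54.0 CPM. Gria3 had a log2 fold change of 1.48 (SE 0.20, adjusted p = 2.71e-06) with ATF3 knocked out and 0.65 (SE 0.24, adjusted p = 0.044) with ATF4 knocked out. Gria3 was at 1.25 (SE 0.20, adjusted p = 3.39e-05) with CEBPG knocked out and 1.91 (SE 0.20, adjusted p = 6.98e-08) with CHOP knocked out on that scale. Gria1, which encodes GluA1, the subunit tied to activity-dependent trafficking, was at 58.8, 54.7, 64.8, 50.3 and 71.2 CPM in the ATF3 knockouts and 27.9 and 40.1 CPM in the ATF4 knockouts. For Gria1, the CEBPG knockouts had 39.4, 66.1, 40.1 and 66.1 CPM, the CHOP knockouts 62.5, 63.2, 48.3, 61.4 and 63.1 CPM and the controls 34.5, 24.8, 23.9 and 21.9 CPM. Of the ATF4 libraries 1 lay within the control range, and every ATF3, CEBPG and CHOP library lay above it. Gria1 had a log2 fold change of 1.19 (SE 0.19, adjusted p = 3.27e-05) with ATF3 knocked out and 1.01 (SE 0.20, adjusted p = 0.000314) with CEBPG knocked out. Gria1 was at 1.18 (SE 0.19, adjusted p = 3.22e-05) with CHOP knocked out on that scale. The ATF4 value of Gria1, 0.37 (SE 0.24, adjusted p = 0.258), did not pass. The ATF4 call of Gria2 was lost without ATF4 replicate 1 (0.5, adjusted p = 0.153) or control replicate 8 (0.51, adjusted p = 0.0516). That of Gria3 was lost when any 1 of ATF4 replicates 1 and 3 and control replicates 5, 7 and 8 was left out (log2 fold change 0.45 to 0.73, adjusted p = 0.0895 to 0.241).

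Per kilobase of exon, so that genes can be set side by side, the level of Gria4 was 34.2 ± 3.53 CPM per kb in the ATF3 knockouts (SD, n = 5), 18.4 ± 0.707 in the ATF4 (n = 2), 30.4 ± 3.44 in the CEBPG (n = 4), 43.6 ± 6.4 in the CHOP knockouts (n = 5) and 9.62 ± 4.11 in the controls (n = 4). Gria2 was at 29.9 ± 1.37, 19.6 ± 2.47, 29.2 ± 9.27 and 36.4 ± 0.512 CPM per kb in the 4 knockouts in that order and 12.7 ± 2.44 in the controls. The 2 leading genes were thus within their spread of each other in the ATF4 and CEBPG knockouts and in the controls. Gria1 and Gria3 were lower in every group, at 3.56 to 13.5 CPM per kb on average. Gria4 took 38.1% to 44.5% of length-scaled AMPA reads in ATF3, 35.9% to 38.8% in ATF4, 35.2% to 46.9% in CEBPG and 38.3% to 44.8% in CHOP knockouts, and 22.1% to 38.0% in the controls.

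**Figure D3:**
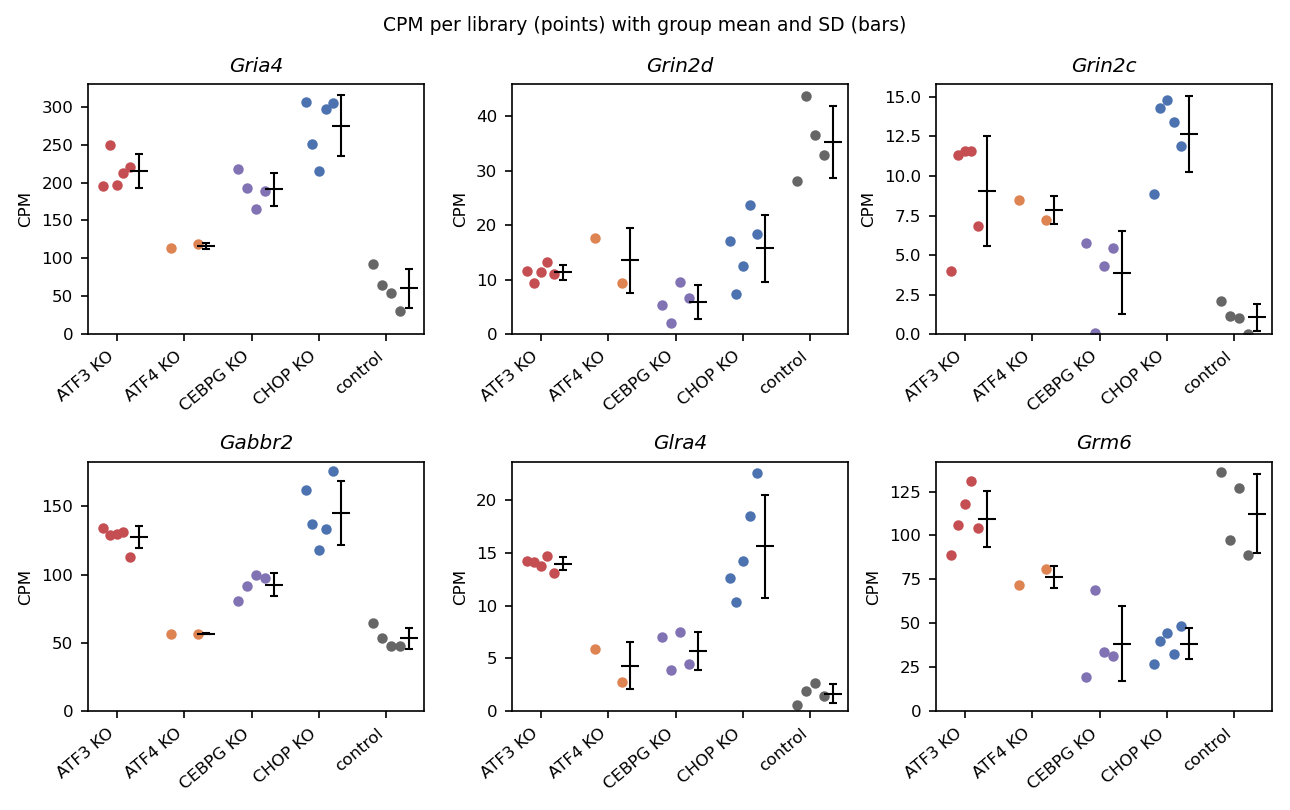
CPM (vertical axis, separate scales from 0) of 6 receptor genes in every library (points) of the 5 groups, with the group mean and SD at the right of each set. Gria4, Glra4 and, in the ATF3, CEBPG and CHOP knockouts, Gabbr2 lie above all controls, Grin2d of every knockout library lies under all controls, and Grm6 is low in the CEBPG and CHOP knockouts.

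NMDA receptor genes changed in opposite directions. In the ATF3, ATF4 and CHOP knockouts 3 of the 7 rose and 1 fell in each, and in the CEBPG knockouts 1 fell and none rose. For that 0, edgeR found 2 at an unadjusted p below 0.05 and DESeq2 called 2. Grin2d, which encodes GluN2D, a subunit of slowly closing channels with weak magnesium block, was at 11.6, 9.42, 11.4, 13.2 and 11.1 CPM in the ATF3 knockouts and 17.7 and 9.33 CPM in the ATF4 knockouts. For Grin2d, the CEBPG knockouts had 6.64, 5.37, 2.08 and 9.55 CPM, the CHOP knockouts 17.1, 7.31, 12.4, 23.6 and 18.3 CPM and the controls 28.1, 43.7, 36.6 and 32.8 CPM. The gene lies at 45831883 to 45878378 of chromosome 7 (minus strand). Every library of each knockout lay under every control, and the 3 lowest libraries were CEBPG knockouts. Grin2d had a log2 fold change of -1.64 (SE 0.34, adjusted p = 0.000514) with ATF3 knocked out and -1.38 (SE 0.46, adjusted p = 0.0247) with ATF4 knocked out. Grin2d was at -2.56 (SE 0.38, adjusted p = 9.2e-06) with CEBPG knocked out and -1.16 (SE 0.33, adjusted p = 0.00881) with CHOP knocked out on that scale. Without ATF4 replicate 3 the ATF4 value was -0.99, adjusted p = 0.247. The authors' deposited table gives Grin2d log fold changes of 0.43 in ATF3, -2.18 in ATF4, -0.69 in CEBPG and 0.46 in CHOP knockouts, with FDR values of 0.896, 0.384, 0.638 and 0.905, so the direction differs for ATF3 and CHOP, and the fall in each knockout is that of the fit to the counts.

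Grin2c, which encodes GluN2C, another subunit with weak magnesium block, moved the other way at low levels. It was at 4.01, 11.3, 11.6, 11.6 and 6.84 CPM in the ATF3 knockouts and 8.5 and 7.22 CPM in the ATF4 knockouts. For Grin2c, the CEBPG knockouts had 5.45, 5.77, 0.0562 and 4.29 CPM, the CHOP knockouts 8.89, 14.3, 14.8, 13.4 and 11.9 CPM and the controls 2.07, 1.13, 1.02 and 0 CPM. All ATF3, ATF4 and CHOP libraries lay above the controls, whereas 1 CEBPG library, replicate 8, fell among them. Grin2c had a log2 fold change of 3.1 (SE 0.77, adjusted p = 0.00291) with ATF3 knocked out and 2.89 (SE 0.87, adjusted p = 0.0131) with ATF4 knocked out. Grin2c was at 3.58 (SE 0.78, adjusted p = 0.000907) with CHOP knocked out and 1.88 (SE 0.77, adjusted p = 0.0641) with CEBPG knocked out on that scale. The CEBPG value passed without CEBPG replicate 8 (2.26, adjusted p = 0.00437) or control replicate 4 (2.49, adjusted p = 0.0358) and in DESeq2 (1.88, adjusted p = 0.0303), and the ATF4 call was lost without ATF4 replicate 1 (2.77, adjusted p = 0.0665).

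Set against each other per length, the 4 GluN2 genes had a different make-up in the knockouts, a comparison chosen after the values were seen and given without a test. Grin2d made up 34.0% to 53.9% of length-scaled GluN2 reads in ATF3, 46.3% to 57.9% in ATF4, 35.0% to 71.5% in CEBPG and 23.0% to 52.6% in CHOP knockouts, and 87.6% to 98.0% in the controls. Grin2c made up 24.6% to 54.0%, 36.8% to 47.4%, 2.56% to 49.7% and 35.2% to 59.6% in the 4 knockouts in that order, and 0% to 8.54% in the controls. No knockout library reached the lowest control share of Grin2d. These shares rest on genes at 0 to 43.7 CPM.

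**Figure D4:**
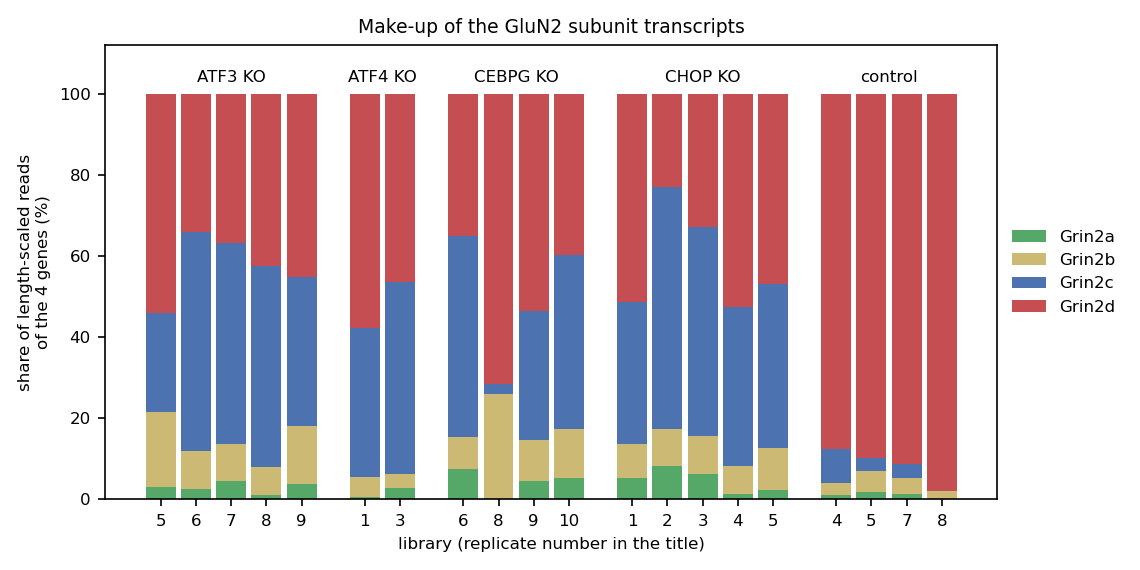
Share (%) of length-scaled reads of Grin2a, Grin2b, Grin2c and Grin2d in each library, with bars that sum to 100 and libraries grouped by knockout, controls at the right. Grin2d fills 87.6% or more of every control bar and at most 71.5% of any knockout bar, where Grin2c takes most of the rest in all libraries but CEBPG replicate 8.

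Grin1, which encodes the GluN1 subunit that every NMDA receptor needs, was at 115, 108, 112, 114 and 115 CPM in the ATF3 knockouts and 121 and 204 CPM in the ATF4 knockouts. For Grin1, the CEBPG knockouts had 70.3, 45.1, 94.7 and 74.4 CPM, the CHOP knockouts 137, 153, 155, 135 and 160 CPM and the controls 65.6, 43.9, 57.4 and 30.5 CPM. ATF3, ATF4 and CHOP libraries lay above all controls, and 3 of the 4 CEBPG libraries did. Grin1 had a log2 fold change of 1.19 (SE 0.20, adjusted p = 5.3e-05) with ATF3 knocked out and 1.72 (SE 0.24, adjusted p = 8.27e-06) with ATF4 knocked out. Grin1 was at 1.58 (SE 0.20, adjusted p = 1.3e-06) with CHOP knocked out on that scale. The CEBPG difference of Grin1, 0.53 (SE 0.21, adjusted p = 0.051), did not pass. It passed in DESeq2 and without CEBPG replicate 6 or control replicate 4 or 7. On the opposite strand Grin1os shares 13.5% of the Grin1 exon bases, and since no source used here gives the strand setting of the counting, reads of both cannot be told apart there. Grin2b, whose GluN2B subunit is abundant in developing neurons, was at 14.8, 9.91, 10.5, 7.97 and 13 CPM in the ATF3 knockouts and 5.38 and 2.6 CPM in the ATF4 knockouts. For Grin2b, the CEBPG knockouts had 7.55, 4.56, 2.81 and 6.63 CPM, the CHOP knockouts 10.2, 11, 13.3, 11.6 and 15.1 CPM and the controls 3.51, 9.56, 5.87 and 2.5 CPM. Its CHOP libraries lay above all controls and 4 of the 5 ATF3 libraries did. Grin2b had a log2 fold change of 1.09 (SE 0.38, adjusted p = 0.0316) with ATF3 knocked out and 1.21 (SE 0.38, adjusted p = 0.017) with CHOP knocked out. The ATF3 call of Grin2b was lost when any 1 of ATF3 replicates 5 and 9 and control replicates 4 and 8 was left out (log2 fold change 0.82 to 1.03, adjusted p = 0.0638 to 0.128), and the CHOP call without control replicate 4 (1.05, adjusted p = 0.0582) or 8 (0.94, adjusted p = 0.08). Grin2a, Grin3a and Grin3b, the last pair encoding glycine-binding GluN3 subunits, stayed between 0 and 13.8 CPM in all libraries, and the single call against control among them was Grin3b, higher in the ATF4 knockouts, which was lost when any 1 of ATF4 replicates 1 and 3 and control replicates 4 and 8 was left out (log2 fold change 1.06 to 1.48, adjusted p = 0.0753 to 0.219). Tmem259 shares 32.1% of the Grin3b exon bases on the opposite strand.

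Among kainate receptor genes, Grik1 set the knockouts apart from each other. It encodes GluK1, the subunit through which OFF bipolar cells of the mouse receive photoreceptor input, and it is a bipolar marker in the list used here. Grik1 was at 386, 439, 408, 394 and 462 CPM in the ATF3 knockouts and 191 and 261 CPM in the ATF4 knockouts. For Grik1, the CEBPG knockouts had 90.5, 125, 92.3 and 67.7 CPM, the CHOP knockouts 196, 202, 218, 180 and 166 CPM and the controls 177, 158, 160 and 106 CPM. The ATF3 libraries were the highest, and 3 of the 4 CEBPG libraries lay under all controls. Grik1 had a log2 fold change of 1.48 (SE 0.16, adjusted p = 1.16e-07) with ATF3 knocked out and 0.59 (SE 0.19, adjusted p = 0.0218) with ATF4 knocked out. Grik1 was at -0.68 (SE 0.16, adjusted p = 0.00211) with CEBPG knocked out on that scale. The CHOP difference of Grik1 did not pass (adjusted p = 0.0779). The ATF4 call was lost without ATF4 replicate 3 (0.35, adjusted p = 0.34) or control replicate 8 (0.41, adjusted p = 0.105). Per kb, Grik1 was the most abundant kainate gene in every group, with 62.1 ± 4.75 CPM per kb in ATF3, 33.6 ± 7.35 in ATF4, 14.0 ± 3.5 in CEBPG and 28.6 ± 2.98 in CHOP knockouts and 22.4 ± 4.54 in the controls, while no other kainate gene averaged more than 10.9.

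Grik5, which encodes GluK5, a high-affinity subunit that needs a partner such as GluK2, was at 28.1, 22.4, 31.9, 31.2 and 25.8 CPM in the ATF3 knockouts and 56.1 and 56.9 CPM in the ATF4 knockouts. For Grik5, the CEBPG knockouts had 20.5, 25.6, 26.2 and 22 CPM, the CHOP knockouts 34.9, 37.8, 47.7, 45.8 and 37.8 CPM and the controls 12.6, 22.2, 22.6 and 12.4 CPM. ATF4 and CHOP libraries lay above all controls, the ATF4 libraries highest. Grik5 had a log2 fold change of 0.68 (SE 0.20, adjusted p = 0.00878) with ATF3 knocked out and 1.7 (SE 0.24, adjusted p = 8.62e-06) with ATF4 knocked out. Grik5 was at 1.23 (SE 0.20, adjusted p = 3.05e-05) with CHOP knocked out on that scale. The ATF3 call of Grik5 was lost without control replicate 8 (0.52, adjusted p = 0.0574). Grik2, the gene of GluK2, was at 48, 41, 43.7, 51.2 and 43.1 CPM in the ATF3 knockouts and 10.7 and 19.8 CPM in the ATF4 knockouts. For Grik2, the CEBPG knockouts had 17.6, 61.7, 53.7 and 20.6 CPM, the CHOP knockouts 76, 62.5, 37.2, 39.3 and 58.4 CPM and the controls 10.8, 10.5, 19 and 7.41 CPM. All ATF3 and CHOP libraries exceeded the controls, and the CEBPG libraries split, replicates 6 and 8 at 61.7 and 53.7 CPM and replicates 10 and 9 at 17.6 and 20.6 CPM. Grik2 had a log2 fold change of 1.92 (SE 0.35, adjusted p = 0.00013) with ATF3 knocked out and 1.67 (SE 0.36, adjusted p = 0.000725) with CEBPG knocked out. Grik2 was at 2.19 (SE 0.35, adjusted p = 2.86e-05) with CHOP knocked out on that scale. Without CEBPG replicates 6 and 8 together the CEBPG value was 0.7, adjusted p = 0.0952. Grik3, the gene of GluK3, was at 13, 8.0, 10.2, 13.3 and 10.7 CPM in the ATF3 knockouts and 13.3 and 2.84 CPM in the ATF4 knockouts. For Grik3, the CEBPG knockouts had 5.25, 6.28, 24.6 and 2.93 CPM, the CHOP knockouts 18.7, 22.8, 18.4, 22.9 and 22.4 CPM and the controls 5.58, 4.21, 9.95 and 2.86 CPM. Its CHOP libraries lay above all controls, and it rose there (1.89 (SE 0.51, adjusted p = 0.00552)). Grik4, which encodes another high-affinity subunit, was at 1.01 to 8.59 CPM and was called in no comparison.

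Delta receptors act as synaptic organizers more than as glutamate-gated channels. Among their genes Grid1 was at 0.350 to 6.09 CPM over the 20 libraries and was called in no comparison.

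Metabotropic glutamate receptors signal through G proteins, and of their 8 genes 5 rose in ATF3, 1 in ATF4, 1 in CEBPG and 5 in CHOP knockouts, while 1 fell in CEBPG knockouts and 1 in CHOP knockouts. Grm6 encodes mGluR6, by which ON bipolar cells sense photoreceptor glutamate, and is a bipolar marker like Grik1. It was at 88.7, 106, 118, 131 and 104 CPM in the ATF3 knockouts and 71.9 and 80.7 CPM in the ATF4 knockouts. For Grm6, the CEBPG knockouts had 31.5, 19.6, 68.9 and 33.7 CPM, the CHOP knockouts 27, 39.9, 44.6, 32.6 and 48.7 CPM and the controls 136, 97.7, 127 and 89.1 CPM. All ATF4, CEBPG and CHOP libraries lay under all controls, the CEBPG and CHOP libraries furthest, while the ATF3 libraries overlapped the controls. Grm6 had a log2 fold change of -1.54 (SE 0.26, adjusted p = 5.9e-05) with CEBPG knocked out and -1.54 (SE 0.24, adjusted p = 2.46e-05) with CHOP knocked out. Grm6 was not called in the ATF4 knockouts, at -0.56 (SE 0.32, adjusted p = 0.2), or in the ATF3 knockouts (adjusted p = 0.931). Trpm1, the channel that mGluR6 controls, had 163 to 238 CPM in ATF3, 122 to 123 in ATF4, 28.1 to 102 in CEBPG and 55.7 to 103 CPM in CHOP knockouts, and 199 to 389 CPM in the controls. The share of bipolar cells in the sorted cells was not measured, and its part in the Grm6 and Grik1 values was not tested.

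Grm7, which encodes mGluR7, a presynaptic receptor of low glutamate affinity, was at 112, 129, 98.8, 115 and 118 CPM in the ATF3 knockouts and 47.5 and 65.7 CPM in the ATF4 knockouts. For Grm7, the CEBPG knockouts had 88.3, 166, 99.2 and 97 CPM, the CHOP knockouts 146, 98.8, 103, 115 and 141 CPM and the controls 53, 38.4, 38 and 22.1 CPM. ATF3, CEBPG and CHOP libraries lay above all controls, and replicate 6 of the CEBPG knockouts stood far above the other 3. Grm7 had a log2 fold change of 1.6 (SE 0.21, adjusted p = 2.96e-06) with ATF3 knocked out and 1.57 (SE 0.22, adjusted p = 5.25e-06) with CEBPG knocked out. Grm7 was at 1.67 (SE 0.21, adjusted p = 1.41e-06) with CHOP knocked out on that scale. The ATF4 difference of Grm7 did not pass (adjusted p = 0.0988). Its upstream window is the one with the C/EBP-ATF response element printed above. Grm8 (mGluR8), a presynaptic receptor of the same group, was at 68.6, 63.9, 60.6, 63.9 and 60.6 CPM in the ATF3 knockouts and 31.4 and 28.3 CPM in the ATF4 knockouts. For Grm8, the CEBPG knockouts had 27.7, 46.2, 34.5 and 36.1 CPM, the CHOP knockouts 77.2, 87.8, 65, 73.6 and 89 CPM and the controls 49.6, 53.6, 37.4 and 30.4 CPM. ATF3 and CHOP libraries were all above the controls, and CEBPG and ATF4 libraries lay within or under the control range. Grm8 rose in the ATF3 (0.58 (SE 0.17, adjusted p = 0.00911)) and CHOP knockouts (0.88 (SE 0.17, adjusted p = 0.00021)), and without control replicate 8 the ATF3 value was 0.42, adjusted p = 0.0648. Grm4 (mGluR4), also of that group, was at 30.2, 25.7, 20.2, 22.3 and 17.6 CPM in the ATF3 knockouts and 19.5 and 26.4 CPM in the ATF4 knockouts. For Grm4, the CEBPG knockouts had 11.8, 23.2, 15.7 and 15.7 CPM, the CHOP knockouts 33.7, 16.3, 27, 15.1 and 30.7 CPM and the controls 14.7, 8.75, 9.78 and 6.61 CPM. All ATF3, ATF4 and CHOP libraries exceeded the controls. Grm4 had a log2 fold change of 1.22 (SE 0.29, adjusted p = 0.00191) with ATF3 knocked out and 1.2 (SE 0.35, adjusted p = 0.0108) with ATF4 knocked out. Grm4 was at 1.3 (SE 0.29, adjusted p = 0.00108) with CHOP knocked out on that scale. Without ATF4 replicate 3 the ATF4 value of Grm4 was 0.97, adjusted p = 0.125.

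Grm5 (2.46 to 43.3 CPM over the 20 libraries), whose mGluR5 couples to Gq proteins, was called in no comparison. Of the Gi-coupled pair Grm2 and Grm3, Grm2 (0.101 to 43.1 CPM) rose in the ATF3 and CHOP knockouts, and Grm3 (0 to 28.1 CPM) was called in no comparison. Per kb, Grm6 and Grm7 led the class in all groups but the CHOP knockouts, Grm6 with 20.2 ± 2.93 CPM per kb in ATF3, 14.1 ± 1.13 in ATF4, 7.09 ± 3.91 in CEBPG and 7.11 ± 1.62 in CHOP knockouts and 20.7 ± 4.18 in the controls, and in the CHOP knockouts Grm8 averaged slightly above Grm6. Grm7 stood at 19.4 ± 1.84, 9.63 ± 2.21, 19.1 ± 6.09 and 20.5 ± 3.69 CPM per kb in the 4 knockouts in that order and 6.43 ± 2.14 in the controls. Grm6 thus led in the controls, and Grm7 led in the CEBPG and CHOP knockouts.

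GABA-A receptor genes were the most numerous class, and 12 of 16 rose in ATF3, 4 in ATF4, 4 in CEBPG and 9 in CHOP knockouts, while 4 fell in CEBPG knockouts and 1 in CHOP knockouts. The class medians were 1.52, 0.40, 0.45 and 1.16 in the same order of knockouts. Gabra3, the gene of alpha-3, was at 86.8, 71.5, 70.9, 76.9 and 81.8 CPM in the ATF3 knockouts and 34.7 and 88.5 CPM in the ATF4 knockouts. For Gabra3, the CEBPG knockouts had 65.3, 44.3, 48.7 and 59.5 CPM, the CHOP knockouts 90.9, 76.2, 99.1, 99.5 and 118 CPM and the controls 41.1, 28.5, 17.4 and 18.1 CPM. ATF3, CEBPG and CHOP libraries lay above all controls, and the 2 ATF4 libraries were far apart. Gabra3 had a log2 fold change of 1.56 (SE 0.25, adjusted p = 2.64e-05) with ATF3 knocked out and 1.23 (SE 0.30, adjusted p = 0.00263) with ATF4 knocked out. Gabra3 was at 1.06 (SE 0.25, adjusted p = 0.00218) with CEBPG knocked out and 1.88 (SE 0.25, adjusted p = 2.31e-06) with CHOP knocked out on that scale. Without ATF4 replicate 3 the ATF4 value of Gabra3 was 0.4, adjusted p = 0.428.

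Gabrd, which encodes delta, a subunit of receptors outside synapses, was at 53.9, 50.8, 55.7, 55.2 and 51.6 CPM in the ATF3 knockouts and 84.1 and 70.6 CPM in the ATF4 knockouts. For Gabrd, the CEBPG knockouts had 38.9, 35.7, 25 and 28.6 CPM, the CHOP knockouts 69, 48.9, 52, 81.7 and 43.8 CPM and the controls 21.7, 16.2, 44.3 and 17.3 CPM. ATF3 and ATF4 libraries lay above all controls, and 1 control library, replicate 7, reached 44.3 CPM. Gabrd had a log2 fold change of 1.09 (SE 0.24, adjusted p = 0.00109) with ATF3 knocked out and 1.63 (SE 0.29, adjusted p = 0.000168) with ATF4 knocked out. Gabrd was at 1.24 (SE 0.24, adjusted p = 0.000323) with CHOP knocked out on that scale. Gabrg3, the gene of gamma-3, was at 19.2, 21.3, 22.8, 22.9 and 19.6 CPM in the ATF3 knockouts and 15.5 and 12.1 CPM in the ATF4 knockouts. For Gabrg3, the CEBPG knockouts had 10.4, 45.6, 15 and 26.2 CPM, the CHOP knockouts 26.5, 27.1, 21.3, 20 and 38.7 CPM and the controls 7.02, 6.64, 5.44 and 3.22 CPM. Every knockout library was above every control library, with the widest spread in the CEBPG knockouts. Gabrg3 had a log2 fold change of 1.93 (SE 0.34, adjusted p = 0.000115) with ATF3 knocked out and 1.31 (SE 0.41, adjusted p = 0.0171) with ATF4 knocked out. Gabrg3 was at 2.12 (SE 0.36, adjusted p = 5.53e-05) with CEBPG knocked out and 2.27 (SE 0.35, adjusted p = 1.74e-05) with CHOP knocked out on that scale. For Gabrg3 the ATF4 call was lost without ATF4 replicate 1 (1.12, adjusted p = 0.143) or control replicate 8 (1.07, adjusted p = 0.0638).

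The rho genes Gabrr1, Gabrr2 and Gabrr3, chosen for a closer account after their values were seen, encode the subunits of slowly desensitizing receptors found on bipolar cell terminals. Gabrr2 was at 132, 155, 132, 145 and 144 CPM in the ATF3 knockouts and 119 and 121 CPM in the ATF4 knockouts. For Gabrr2, the CEBPG knockouts had 35, 66.5, 81.1 and 35.1 CPM, the CHOP knockouts 40.1, 64.6, 57, 54.8 and 37.6 CPM and the controls 120, 95.6, 154 and 86.4 CPM. CEBPG and CHOP libraries all lay under the controls, and ATF3 and ATF4 libraries lay within or near the control range. Gabrr2 had a log2 fold change of -1.07 (SE 0.23, adjusted p = 0.000881) with CEBPG knocked out and -1.16 (SE 0.22, adjusted p = 0.000188) with CHOP knocked out. Gabrr1 was at 109, 131, 127, 118 and 126 CPM in the ATF3 knockouts and 95 and 99 CPM in the ATF4 knockouts. For Gabrr1, the CEBPG knockouts had 42.6, 33.6, 64.5 and 37.8 CPM, the CHOP knockouts 48.2, 74.8, 63.5, 55.3 and 44.1 CPM and the controls 111, 63, 95.1 and 54.6 CPM. Of the ATF3 libraries 4 lay above all controls, and of the CEBPG libraries 3 lay under them. It rose in the ATF3 knockouts (0.59 (SE 0.20, adjusted p = 0.0269)) and fell in the CEBPG knockouts (-0.86 (SE 0.21, adjusted p = 0.00286)). The ATF3 call of Gabrr1 was lost without ATF3 replicate 6 (0.56, adjusted p = 0.0531) or control replicate 5 (0.46, adjusted p = 0.122) or 8 (0.41, adjusted p = 0.147), and the authors' deposited table gives it a log fold change of -0.17 with an FDR of 0.890 there. Gabrr3 was at 18.5, 24.4, 21.2, 22 and 25.4 CPM in the ATF3 knockouts and 8.93 and 7.62 CPM in the ATF4 knockouts. For Gabrr3, the CEBPG knockouts had 0.812, 0.101, 0.506 and 5.79 CPM, the CHOP knockouts 8.82, 15.6, 11.1, 6.79 and 8.44 CPM and the controls 9.72, 11, 7.14 and 11.2 CPM. All ATF3 libraries lay above and all CEBPG libraries under the controls, with replicate 9 of the CEBPG knockouts apart from the other 3. It fell in the CEBPG knockouts (-2.34 (SE 0.59, adjusted p = 0.00315)), and the ATF3 difference did not pass (adjusted p = 0.0898). That ATF3 difference passed with only the ATF3 and control libraries in the fit, and without CEBPG replicates 6 and 8 together. On the opposite strand 1700022E09Rik shares 6.5% of the Gabrr3 exon bases. Bipolar marker shares, given above, were low in the same CEBPG and CHOP libraries, and their part in these values was not tested.

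Of the remaining GABA-A genes, Gabra2 (6.25 to 36.3 CPM over the 20 libraries), Gabra4 (0.810 to 43.3 CPM), Gabrb1 (3.57 to 24.2 CPM) and Gabrb2 (16.0 to 83.0 CPM) rose in the ATF3 and CHOP knockouts. Gabrg1 (1.62 to 22.3 CPM) rose in the ATF3 and CEBPG knockouts, and Gabra5 (0.510 to 9.46 CPM) was called in no comparison. The CHOP call of Gabrb1 was lost when any 1 of CHOP replicate 2 and control replicates 5, 7 and 8 was left out (log2 fold change 0.83 to 1.07, adjusted p = 0.0608 to 0.119), and the CEBPG call of Gabrg1 when any 1 of CEBPG replicates 10 and 8 and control replicates 5, 7 and 8 was left out (log2 fold change 1.04 to 1.42, adjusted p = 0.0644 to 0.155). Gabrq, the gene of the theta subunit, had reads in 5 of the 20 libraries, up to 2.36 CPM, and none in the controls. Per kb, the highest GABA-A level was that of Gabrr2 in the ATF3 and ATF4 knockouts and the controls. Gabrr2 had 67.3 ± 4.63 CPM per kb in ATF3, 57.0 ± 0.707 in ATF4, 25.9 ± 11 in CEBPG and 24.1 ± 5.49 in CHOP knockouts and 54.1 ± 14.4 in the controls.

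Both GABA-B receptor genes rose in the ATF3, CEBPG and CHOP knockouts, and 1 of the 2 in the ATF4 knockouts. Gabbr1 encodes the subunit that binds GABA and Gabbr2 the partner that couples to G proteins, and a working receptor needs both. Gabbr1 was at 113, 124, 100, 122 and 98.9 CPM in the ATF3 knockouts and 124 and 93.3 CPM in the ATF4 knockouts. For Gabbr1, the CEBPG knockouts had 100, 88.1, 103 and 109 CPM, the CHOP knockouts 178, 127, 131, 117 and 181 CPM and the controls 78.1, 60.4, 54.6 and 44.7 CPM. Every knockout library was above every control library. Gabbr1 had a log2 fold change of 0.91 (SE 0.16, adjusted p = 0.000103) with ATF3 knocked out and 0.87 (SE 0.20, adjusted p = 0.0016) with ATF4 knocked out. Gabbr1 was at 0.76 (SE 0.17, adjusted p = 0.00105) with CEBPG knocked out and 1.3 (SE 0.16, adjusted p = 9.64e-07) with CHOP knocked out on that scale. Without ATF4 replicate 1 the ATF4 value of Gabbr1 was 0.65, adjusted p = 0.0713. Gabbr2 was at 134, 129, 130, 131 and 113 CPM in the ATF3 knockouts and 56.8 and 56.9 CPM in the ATF4 knockouts. For Gabbr2, the CEBPG knockouts had 97.8, 80.8, 92 and 100 CPM, the CHOP knockouts 162, 137, 118, 133 and 176 CPM and the controls 64.4, 53.9, 47.6 and 47.6 CPM. Only the ATF4 libraries overlapped the controls. Gabbr2 had a log2 fold change of 1.26 (SE 0.13, adjusted p = 5.75e-08) with ATF3 knocked out and 0.8 (SE 0.13, adjusted p = 4.59e-05) with CEBPG knocked out. Gabbr2 was at 1.44 (SE 0.13, adjusted p = 7.05e-09) with CHOP knocked out on that scale. The ATF4 difference of Gabbr2 did not pass (adjusted p = 0.721). Per kb the 2 genes were within their spread of each other in the controls, at 7.67 ± 1.82 CPM per kb for Gabbr1 and 7.98 ± 1.18 for Gabbr2, and in the ATF4 knockouts Gabbr1 had the higher level, 14.0 ± 2.83 against 8.50 ± 0.00707 CPM per kb.

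Of the 5 glycine receptor genes, which mediate fast inhibition from glycinergic amacrine cells, 4 rose in the ATF3 and in the CHOP knockouts and 3 in the ATF4 and in the CEBPG knockouts, while 1 fell in the CEBPG knockouts, and the class medians were 1.79, 0.87, 1.23 and 2.15 in knockouts of ATF3, ATF4, CEBPG and CHOP. Glra4, the gene of alpha-4, was at 14.2, 14.1, 13.7, 14.7 and 13.1 CPM in the ATF3 knockouts and 5.9 and 2.76 CPM in the ATF4 knockouts. For Glra4, the CEBPG knockouts had 4.49, 6.99, 3.93 and 7.46 CPM, the CHOP knockouts 12.6, 10.3, 14.2, 18.5 and 22.5 CPM and the controls 0.63, 1.94, 2.72 and 1.43 CPM. Every knockout library was above every control library, ATF3 and CHOP libraries by the most. Glra4 had a log2 fold change of 3.06 (SE 0.39, adjusted p = 1.89e-06) with ATF3 knocked out and 1.37 (SE 0.46, adjusted p = 0.0257) with ATF4 knocked out. Glra4 was at 1.77 (SE 0.39, adjusted p = 0.00111) with CEBPG knocked out and 3.22 (SE 0.40, adjusted p = 8.57e-07) with CHOP knocked out on that scale. The ATF4 call was lost without ATF4 replicate 1 (0.72, adjusted p = 0.432) or control replicate 4 (1.08, adjusted p = 0.0696) or 8 (1.25, adjusted p = 0.0656).

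Glra2, the gene of alpha-2, which is widespread in the inner retina, was at 48.4, 57.9, 55.5, 61.7 and 51.7 CPM in the ATF3 knockouts and 27.9 and 32.4 CPM in the ATF4 knockouts. For Glra2, the CEBPG knockouts had 33.2, 28.5, 50.9 and 37.3 CPM, the CHOP knockouts 67.9, 77.4, 75.8, 69.2 and 93.5 CPM and the controls 22.1, 14.1, 9.44 and 18 CPM. Every knockout library was again above every control, and the CHOP libraries were highest. Glra2 had a log2 fold change of 1.79 (SE 0.21, adjusted p = 3.73e-07) with ATF3 knocked out and 0.92 (SE 0.25, adjusted p = 0.00673) with ATF4 knocked out. Glra2 was at 1.23 (SE 0.21, adjusted p = 6.73e-05) with CEBPG knocked out and 2.27 (SE 0.21, adjusted p = 1.2e-08) with CHOP knocked out on that scale. Without ATF4 replicate 3 the ATF4 value of Glra2 was 0.81, adjusted p = 0.0726. Glra3, the gene of alpha-3, was at 29.1, 33.9, 37.5, 41.3 and 35.5 CPM in the ATF3 knockouts and 5.99 and 0.892 CPM in the ATF4 knockouts. For Glra3, the CEBPG knockouts had 11.5, 35.5, 23.2 and 32.3 CPM, the CHOP knockouts 53.6, 25.4, 19.7, 24.8 and 36.4 CPM and the controls 9.63, 7.45, 5.7 and 6.07 CPM. ATF3, CEBPG and CHOP libraries were above all controls, while both ATF4 libraries were within or under the control range. Glra3 had a log2 fold change of 2.3 (SE 0.39, adjusted p = 6.98e-05) with ATF3 knocked out and 1.83 (SE 0.40, adjusted p = 0.000958) with CEBPG knocked out. Glra3 was at 2.15 (SE 0.39, adjusted p = 0.000138) with CHOP knocked out on that scale. The ATF4 value of Glra3 was -1.07 (SE 0.53, adjusted p = 0.132), and -3.0, adjusted p = 0.00423 without ATF4 replicate 1.

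Glra1, the gene of alpha-1, the main adult form in spinal cord, was at 10.9, 10.4, 11, 8.51 and 12.9 CPM in the ATF3 knockouts and 20.4 and 21 CPM in the ATF4 knockouts. For Glra1, the CEBPG knockouts had 4.25, 7.9, 6.52 and 4.26 CPM, the CHOP knockouts 9.52, 14, 14, 9.98 and 12.8 CPM and the controls 12.5, 11.8, 12.2 and 8.66 CPM. ATF4 libraries lay above all other groups, CEBPG libraries under all controls, and ATF3 and CHOP libraries in or near the control range. Glra1 had a log2 fold change of 0.87 (SE 0.31, adjusted p = 0.0366) with ATF4 knocked out and -0.99 (SE 0.27, adjusted p = 0.0062) with CEBPG knocked out. Neither the ATF3 (adjusted p = 0.871) nor the CHOP difference (adjusted p = 0.807) passed. The ATF4 call of Glra1 was lost when any 1 of ATF4 replicates 1 and 3 and control replicates 5 and 8 was left out (log2 fold change 0.72 to 0.9, adjusted p = 0.068 to 0.138). Among the length-scaled reads of the 4 alpha genes, Glra1 made up 10.1% to 16.7% in ATF3, 40.4% to 42.6% in ATF4, 8.48% to 16.7% in CEBPG and 10.5% to 15.2% in CHOP knockouts, and 33.6% to 50.3% in the controls. This make-up was chosen after the values were seen and was not tested.

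Glrb, which encodes the beta subunit that anchors glycine receptors to gephyrin, was at 257, 237, 220, 258 and 256 CPM in the ATF3 knockouts and 113 and 224 CPM in the ATF4 knockouts. For Glrb, the CEBPG knockouts had 194, 141, 197 and 173 CPM, the CHOP knockouts 283, 269, 215, 262 and 315 CPM and the controls 177, 130, 104 and 96.5 CPM. ATF3 and CHOP libraries were above all controls, and the others overlapped them. Glrb had a log2 fold change of 0.95 (SE 0.18, adjusted p = 0.000193) with ATF3 knocked out and 1.09 (SE 0.18, adjusted p = 4.23e-05) with CHOP knocked out. The CEBPG difference of Glrb, 0.48 (SE 0.19, adjusted p = 0.0501), did not pass. It passed in DESeq2 and without CEBPG replicate 6 or control replicate 4. Glrb was the most abundant glycine receptor gene per kb in every group, with 52.8 ± 3.58 CPM per kb in ATF3, 36.2 ± 16.8 in ATF4, 37.9 ± 5.54 in CEBPG and 57.8 ± 7.81 in CHOP knockouts and 27.2 ± 7.82 in the controls, and Glra2 was the next in every group, at 17.5 ± 1.65, 9.58 ± 1.02, 11.9 ± 3.09 and 24.4 ± 3.23 CPM per kb in the knockouts in that order and 5.05 ± 1.72 in the controls. In the ATF4 knockouts and the controls Glra1, at 8.57 ± 0.177 and 4.68 ± 0.735 CPM per kb, lay within the spread of Glra2.

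The ATF3, CEBPG and CHOP knockouts share batch and sex in the sample sheet, so they differ from each other in fewer ways than from the controls. Between the ATF3 and CEBPG knockouts 21 receptor genes were higher in ATF3, against 10.1% of all genes, and none was lower, against 10.2% of all genes, of which 20.4% were called in either direction. For that 0, edgeR found 0 at an unadjusted p below 0.05 and DESeq2 0. Between the CEBPG and CHOP knockouts 26 receptor genes were lower in CEBPG, against 13.2% of all genes, and none was higher, against 13.5%, with 26.7% of all genes called in either direction. For that 0, edgeR also found 0 at an unadjusted p below 0.05 and DESeq2 0. Between the ATF3 and CHOP knockouts 5 were higher in ATF3, against 1.51% of all genes, and none was lower, against 0.756%, with 2.26% called in either direction. Here edgeR found 6 at an unadjusted p below 0.05, DESeq2 0 and edgeR on these 2 groups alone 8. The median log2 fold changes of the 49 genes were 0.78 for ATF3 against CEBPG, -0.77 for CEBPG against CHOP and -0.14 for ATF3 against CHOP, where all genes had 0, -0.03 and -0.01. These 3 comparisons share libraries, and each is given for itself.

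**Figure D5:**
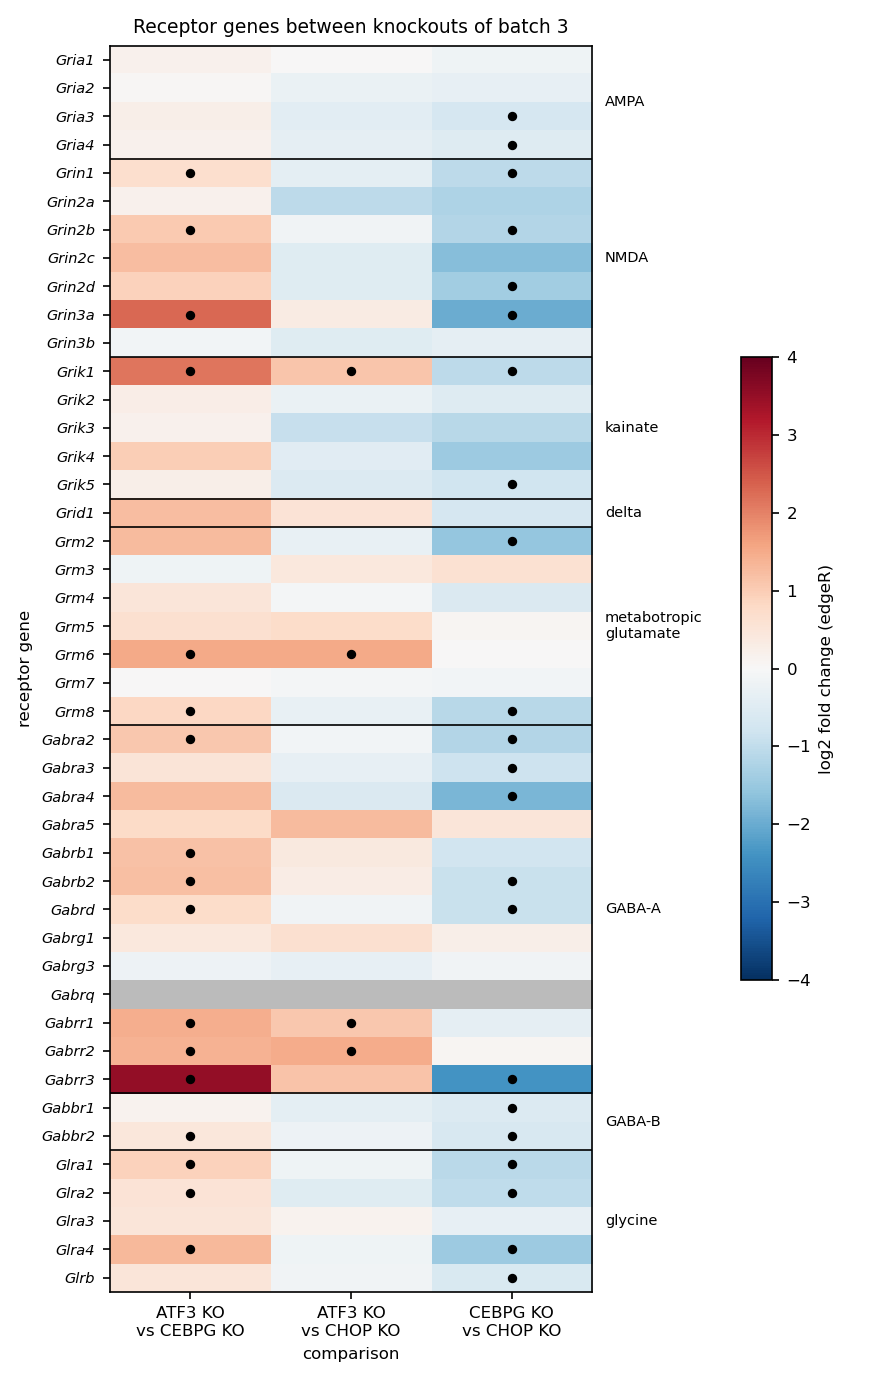
Log2 fold change of the same 44 receptor genes (down the page, by class) in the 3 comparisons between ATF3, CEBPG and CHOP knockouts (across), red for higher and blue for lower in the first-named knockout, with a dot at an adjusted p below 0.05 and Gabrq left grey. The first column holds dots on red cells only, the last on blue cells only, and the middle column has 4 dots.

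Between ATF3 and CHOP the genes higher in ATF3 included Grik1, Grm6, Gabrr1 and Gabrr2, and in each of these 4 all ATF3 libraries lay above all CHOP libraries. Their log2 fold changes were 1.12 (SE 0.14, adjusted p = 6.77e-05) for Grik1, 1.5 (SE 0.23, adjusted p = 0.000515) for Grm6, 1.09 (SE 0.19, adjusted p = 0.00143) for Gabrr1 and 1.48 (SE 0.21, adjusted p = 0.000198) for Gabrr2. All 4 calls remained whichever library was left out. Grik1 and Grm6 belong to the bipolar list, of which 11 of 14 genes, both included, were higher and 1 lower in ATF3 than in CHOP. Over the 13 amacrine markers the median log2 fold change of ATF3 against CHOP was -0.31. Of 10 rod markers 8 were lower in ATF3 than in CHOP. The part of these marker differences in the receptor values was not tested.

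In the ATF3 against CEBPG comparison the 7 largest called differences included those of Gabrr3, Grin3a, Grik1, Grm6, Gabrr1 and Gabrr2. Gabrr3 differed by 3.53 (SE 0.59, adjusted p = 0.000142) and Grik1 by 2.15 (SE 0.16, adjusted p = 5.59e-09) on the log2 scale. The values were 1.51 (SE 0.25, adjusted p = 0.000136) for Grm6, 1.45 (SE 0.21, adjusted p = 2.06e-05) for Gabrr1 and 1.38 (SE 0.23, adjusted p = 0.000104) for Gabrr2. Also higher were Glra1 (0.92 (SE 0.26, adjusted p = 0.0122)), Glra4 (1.29 (SE 0.35, adjusted p = 0.0108)), Grm8 (0.82 (SE 0.17, adjusted p = 0.000932)) and Gabbr2 (0.46 (SE 0.12, adjusted p = 0.0103)). AMPA genes had no call here, and their adjusted p lay between 0.429 and 0.898. Of the 21 calls 6 did not hold without 1 library, among them the following. Grin1 (0.66 (SE 0.19, adjusted p = 0.017)) was not called without CEBPG replicate 6 (0.5, adjusted p = 0.0666). Gabrd (0.74 (SE 0.24, adjusted p = 0.029)) was not called when any 1 of ATF3 replicates 7 and 8 and CEBPG replicates 8 and 9 was left out (log2 fold change 0.64 to 0.73, adjusted p = 0.0526 to 0.0818). Grin2b (1.05 (SE 0.38, adjusted p = 0.0498)) was not called when any 1 of ATF3 replicates 5, 6, 7 and 9 and CEBPG replicates 6, 8 and 9 was left out (log2 fold change 0.85 to 1.17, adjusted p = 0.0519 to 0.129). Glra2 (0.55 (SE 0.19, adjusted p = 0.0463)) was not called when any 1 of ATF3 replicates 5, 6, 7, 8 and 9 and CEBPG replicates 10, 6 and 9 was left out (log2 fold change 0.44 to 0.6, adjusted p = 0.0501 to 0.139). Gabrb1 was not called when any 1 of ATF3 replicate 9 and CEBPG replicates 6 and 9 was left out (log2 fold change 0.93 to 1.1, adjusted p = 0.0568 to 0.078). Of the 14 bipolar markers, Grik1 and Grm6 included, 12 were higher in ATF3 than in CEBPG, as were 8 of the 13 amacrine markers. Of 9 Muller glia markers 6 were higher and 1 lower in ATF3, and all 7 lymphocyte markers were lower. The part of these marker differences in the receptor values was not tested.

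Between CEBPG and CHOP the inhibitory receptor genes made up most of the calls, with 9 of 16 GABA-A, both GABA-B and 4 of 5 glycine receptor genes lower in CEBPG. For GABA receptors the log2 fold changes were -0.83 (SE 0.24, adjusted p = 0.0114) for Gabra3, -2.4 (SE 0.57, adjusted p = 0.00279) for Gabrr3 and -0.64 (SE 0.12, adjusted p = 0.00046) for Gabbr2. For glycine receptors they were -1.03 (SE 0.20, adjusted p = 0.000384) for Glra2, -1.45 (SE 0.35, adjusted p = 0.00368) for Glra4 and -1.08 (SE 0.26, adjusted p = 0.00292) for Glra1. Among glutamate receptor genes Grin1 (-1.06 (SE 0.20, adjusted p = 0.000294)), Grin2d (-1.4 (SE 0.35, adjusted p = 0.00445)) and Grik1 (-1.04 (SE 0.16, adjusted p = 2.89e-05)) were lower. Grik5 (-0.79 (SE 0.19, adjusted p = 0.00353)), Gria3 (-0.66 (SE 0.19, adjusted p = 0.0109)) and Grm8 (-1.12 (SE 0.17, adjusted p = 2.43e-05)) were lower as well. Grm6 and Gabrr2, which fell against control in both knockouts, showed no call between them (adjusted p = 0.997 and adjusted p = 0.81). Of the 26 calls 6 did not hold without 1 library, among them the following. Gria4 (-0.53 (SE 0.19, adjusted p = 0.0428)) was not called when any 1 of CEBPG replicates 10, 8 and 9 and CHOP replicates 1, 2, 4 and 5 was left out (log2 fold change -0.54 to -0.45, adjusted p = 0.0542 to 0.119). Grin2b (-1.18 (SE 0.38, adjusted p = 0.0232)) was not called when any 1 of CEBPG replicates 6 and 8 and CHOP replicate 5 was left out (log2 fold change -1.11 to -0.96, adjusted p = 0.053 to 0.0711). Grin3a was not called when any 1 of CEBPG replicates 10 and 6 and CHOP replicates 1 and 5 was left out (log2 fold change -2.02 to -1.58, adjusted p = 0.0556 to 0.105). Grm2 was not called when any 1 of CEBPG replicates 8 and 9 and CHOP replicates 3, 4 and 5 was left out (log2 fold change -1.54 to -1.31, adjusted p = 0.0506 to 0.0921). In this comparison 9 of 13 amacrine markers and 3 of 14 bipolar markers, Grik1 and Grm6 included, were lower in CEBPG. Of 10 rod markers 9 were lower, and of 9 Muller glia markers 6 were lower and 2 higher. Of 9 microglia markers 7 were higher in CEBPG, as were all 7 lymphocyte markers. The part of these marker differences in the receptor values was not tested.

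Other genes of the same synapses were listed by function. Of all tested genes 18.6%, 16.6%, 18.3% and 18.1% rose in knockouts of ATF3, ATF4, CEBPG and CHOP. In the same order 14.8%, 14.6%, 15% and 15.4% fell, and a difference of any list from these shares was not tested. Of 16 tested auxiliary subunits of AMPA and kainate receptors, 10 rose in ATF3, 9 in ATF4, 5 in CEBPG and 10 in CHOP knockouts and 1 fell in the CEBPG knockouts, with medians of 0.96, 1.01, 0.60 and 1.10. Cacng5 and Cacng3, transmembrane AMPA receptor regulatory proteins, had the smallest adjusted p in the ATF3 knockouts, with log2 fold changes of 1.55 for Cacng5 and 1.20 for Cacng3. In the ATF4 knockouts Cacng4 (1.69) and Cnih2 (1.55), the gene of a cornichon export factor, had the smallest adjusted p, followed by Cacng3 (1.11). Of 24 scaffold genes of glutamate synapses, 14, 10, 10 and 15 rose and 2, 1, 2 and 2 fell in knockouts of ATF3, ATF4, CEBPG and CHOP, with medians of 0.90, 0.79, 0.27 and 0.94. Dlgap1, a postsynaptic density protein, rose by 1.56, 1.04, 1.35 and 1.86 on the log2 scale in the 4 knockouts, and Dlg4, the gene of PSD-95, fell by 1.99, 1.26, 1.92 and 1.35.

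Of 19 tested scaffold and auxiliary genes of GABA and glycine receptors, 12, 11, 7 and 10 rose in knockouts of ATF3, ATF4, CEBPG and CHOP and 1 fell in the CEBPG knockouts, with medians of 0.94, 0.74, 0.42 and 1.0. Kctd8, an auxiliary subunit of GABA-B receptors, rose by 1.62, 1.06, 1.19 and 1.48 on the log2 scale. Of 21 genes of transmitter synthesis and transport, 10, 8, 9 and 11 rose and 6, 4, 7 and 5 fell, with medians of 0.85, 0.67, 0.37 and 0.70. Gad2, which makes GABA in amacrine cells, rose by 1.96 in ATF3, 0.93 in ATF4, 1.52 in CEBPG and 2.27 in CHOP knockouts on the log2 scale. Slc17a7, which fills vesicles with glutamate at photoreceptor and bipolar synapses, fell by 1.22, 0.71, 2.42 and 1.62 in the 4 knockouts in that order. Gad2 is also among the amacrine markers.

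The authors' deposited table has its own log fold changes and FDR values for the 4 knockouts, and no source used here gives its model or log base. At an FDR below 0.05 the authors' deposited table has 18 receptor genes higher and none lower in ATF3, 4 and none in ATF4, 22 and 8 in CEBPG, and 19 and 2 in CHOP knockouts. Of the receptor genes called here, 30 of 34 in ATF3, 18 of 18 in ATF4, 23 of 23 in CEBPG and 31 of 33 in CHOP knockouts had the same sign in the authors' deposited table. The exceptions included Gabrr1 and Grin2d for ATF3 and Grin2d for CHOP. Gria4 had log fold changes of 2.13, 1.56, 1.81 and 2.65 in the 4 knockouts in the authors' deposited table, with FDR values of 0.000598, 0.0344, 1.96e-05 and 0.000439, and Grm6 had -1.23, -1.35, -2.09 and -2.82, with FDR values of 0.111, 0.188, 0.000121 and 0.00397.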

How the data were processed

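RNA of 5000 to 10000 sorted cells per library was made into libraries with the SMART-Seq v4 kit, per the labels' protocols. STAR, Picard, HTSeq, edgeR and the build mm10 are named in the submitters' processing notes; strand and counting settings and the annotation used for counting are stated in no source used here. The deposited table of raw read counts per gene was used as it stood. The deposited sample sheet gives sex, batch, age, aligned reads as counts and the share of duplicates as a fraction (48.0% to 57.6% as percent); its other 41 columns of values per sample were not used. The authors' deposited comparison table holds log fold changes, read as log2, with p-values and FDR; it was used only where named.

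Groups came from the labelled genotype, and 1 library that the labels put in no group was left out. The labels do not say whether libraries of a group came from separate mice, and p-values then cover only the spread from library to library, which may be technical. Genes were filtered with filterByExpr (minimum count 10), scaled by TMM and tested with edgeR's quasi-likelihood test (edgeR 4.0.16, limma 3.58.1, R 4.3.3). There was 1 model of the 5 groups, with Benjamini-Hochberg adjustment over all 16797 tested genes (367 were removed). No prior count was set for the fold changes. A prior count of 2 entered only the log2 CPM by which same-numbered libraries were compared. The procedure was tested on simulated counts whose only group differences were changes set in the ATF3 libraries. Those counts held no difference of batch, sex or cell mix, so that test cannot speak to these. DESeq2 1.42.0, RLE scaling, no filter, fits of 2 groups, a replicate block and leaving out libraries were alternatives. Replicates of a group differed by more than sampling noise (chi-square per gene 12.9 to 64.6). Same-numbered libraries did not deviate together (correlations -0.05 to 0.03), so numbers were not taken as pairs.

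The receptor genes and the gene lists were chosen with earlier results of these data known. Values in every library are given, per class, for up to 4 genes by number of comparisons with control called, at a mean of at least 5 CPM, up to 2 by adjusted p between the ATF3, CEBPG and CHOP knockouts, and the most abundant one. The rho genes were added after their values were seen, and up to 3 called genes of each list were named. CPM use TMM-scaled library sizes, and levels per kb divide by merged exon length in the annotation. Promoter windows came from RefSeq (GRCm38.p6), and the build has the same coordinates as mm10. A few receptor genes and genes of the lists enter the counts, medians and shares and are not reported here by name.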

Additional observations from a re-analysis of the deposited data

Results flagged for a closer look

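In 5 of the 128 groups of libraries examined, over 32 receptor genes, 1 library lay far from the others of its group, where chance flags about 1 in 20 groups. Gabbr2 was at 113 CPM in ATF3 knockout replicate 9, against 129 to 134 CPM in the other ATF3 libraries. Gria1 was at 48.3 CPM in CHOP knockout replicate 3, against 61.4 to 63.2 CPM in the others. Gabrr3 was at 5.79 CPM in CEBPG knockout replicate 9, against 0.101 to 0.812 CPM. Grik3 was at 24.6 CPM in CEBPG replicate 8, against 2.93 to 6.28 CPM. Grm7 was at 166 CPM in CEBPG replicate 6, against 88.3 to 99.2 CPM.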

How the results depend on the processing

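No called receptor gene changed sign under any alternative run. Between knockout and control, leaving out 1 library at a time gave 29 to 33 rises and 1 fall for ATF3, 9 to 17 rises and 0 to 2 falls for ATF4, 14 to 19 rises and 7 to 9 falls for CEBPG, and 27 to 31 rises and 3 to 4 falls for CHOP. Between knockouts it gave 16 to 22 receptor genes higher in ATF3 than in CEBPG and 0 lower, 5 higher in ATF3 than in CHOP and 0 lower, and 20 to 25 lower in CEBPG than in CHOP and 0 higher. With only the 2 groups in the fit there were 11 rises for ATF4, 5 falls for CEBPG and 8 genes lower in ATF3 than in CHOP, with fewer libraries behind the spread. Rises for ATF3 numbered 39 in the fit of 2 groups and 38 without CEBPG replicates 6 and 8. Gabra5, Gabrr3, Grik3, Grin3a and Grm5 were added in each of these runs. Falls for ATF4 numbered 2 in DESeq2 and 2 without CEBPG replicates 6 and 8, where the cause was not tested. A replicate block, though the numbers do not pair the libraries, gave 3 rises and 0 falls for ATF4, 3 falls for CEBPG, 0 genes higher in ATF3 than in CHOP and 1 lower in CEBPG than in CHOP. The ATF4 group has 2 libraries and the controls the fewest reads, and how far this limits genes at low levels was not tested.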
